A study of Homo sapiens with 4 samples.

Results

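The proteasome genes of SH-SY5Y cells, a human neuroblastoma line, were compared between untreated cells and cells exposed to sodium nitroprusside, a nitric oxide donor abbreviated SNP. The genes were chosen by name: every row annotated as protein coding whose symbol starts with PSM, a letter from A to G and a number. This rule found 49 genes among the 58243 genes of the count tables. A further 37 rows matched the name without being protein coding (32 pseudogenes and 5 antisense or long intergenic RNAs) and were left out. By role the 49 comprised 7 alpha and 7 beta subunits of the constitutive core, 3 inducible beta subunits, 2 core subunits known from testis or thymus, 6 ATPases and 3 other subunits of the base, 8 lid subunits, 4 assembly chaperones of the core and 3 of the base, 4 activators and 1 inhibitor. The remaining gene, PSMC3IP, matched by name only: it encodes a meiotic recombination protein that was named for binding PSMC3.

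Transcripts were measured by 75-base sequencing of mRNA in 4 libraries, 2 per group. The control group (libraries a and b) received no agent. The SNP group (libraries a and b) is labelled as being in an oxidized state, and the protocol gives an exposure of 8 h. The labels call the RNA of these cells oxidized and describe no step that selects oxidized RNA, so the libraries were read as the mRNA of treated cells. The protocol speaks of cells differentiated with retinoic acid and of several SNP doses, and the dose of these 2 libraries is not given in the sources used here. The labels do not say that libraries of a group came from separate cultures, so p-values measure the spread between these samples, which may be technical. As this is a bulk measurement of a cell line, fewer cells in a given state and less RNA per cell cannot be told apart.

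The proteasome is the cell's main protease for ubiquitin-tagged proteins. Its barrel-shaped core is built from stacked rings of alpha subunits, which gate the entrance, and of beta subunits, of which PSMB5, PSMB6 and PSMB7 carry the proteolytic sites. The regulatory particle caps the core: its base holds a ring of ATPases that unfold substrates, and its lid removes the ubiquitin chain. In many cells NFE2L1, a transcription factor of the endoplasmic reticulum that is itself degraded by the proteasome, raises the subunit genes together when proteolysis falls short.

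NFE2L1 and its relative NFE2L2 bind the antioxidant response element with small MAF proteins, and NF-Y binds the CCAAT box, so the promoters of the proteasome genes were searched for the letters TGACNNNGC and CCAAT on both strands. Promoter windows (250 bases before to 50 after the start, RefSeq, GRCh38.p14) were matched by symbol for 43 of the 49 genes. TGACNNNGC was found in 15 of the 43 genes (34.9%), against 16.1% of the 27305 gene symbols of the promoter table. It was in 2 of 7 genes that were higher in SNP (PSMC5 and PSMD12), in 3 of 7 with a window that were lower (PSMB3, PSMD9 and PSMG2) and in 9 of 25 that were tested and passed the threshold in neither direction. CCAAT was found in 21 of 43 (48.8%), against 39.7% of all symbols. It was in 5 of 7 higher genes, 3 of 7 lower genes and 11 of 25 that passed in neither direction. A match is a description of the letters, not a shown binding site. The following stretches, 5′ to 3′ on the strand of the gene with the match in capitals, are from genes whose transcripts moved in opposite directions or did not pass the test.
PSMD12 (higher), chr17:67366714-67366762, minus strand: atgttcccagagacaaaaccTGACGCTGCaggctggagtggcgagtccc
PSMB3 (lower), chr17:38752617-38752665, plus strand: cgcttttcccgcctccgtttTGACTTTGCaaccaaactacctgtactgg
PSMD9 (lower), chr12:121888621-121888669, plus strand, match on the opposite strand: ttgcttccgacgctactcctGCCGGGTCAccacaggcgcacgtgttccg
PSMG2 (lower), chr18:12658679-12658727, plus strand: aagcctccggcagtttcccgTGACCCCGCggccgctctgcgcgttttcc
PSMA4 (not past the threshold), chr15:78540640-78540688, plus strand: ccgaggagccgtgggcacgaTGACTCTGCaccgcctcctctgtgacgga
PSMD6 (higher), CCAAT on the opposite strand, chr3:64023662-64023706, minus strand: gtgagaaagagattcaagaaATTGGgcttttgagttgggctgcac
PSMD8 (lower), CCAAT on the opposite strand, chr19:38374463-38374507, plus strand: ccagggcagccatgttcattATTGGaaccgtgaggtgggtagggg

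Total counts per library ran from 5613144 to 8056550, and 3 counts, the limit that a count of 0 allows, correspond to between 0.372 and 0.535 CPM (counts scaled to the library total). Of 12 noradrenergic neuroblastoma markers 11 passed the filter on low counts, and TH, which defines the catecholamine lineage, had 0 counts in every library. The summed share of these markers was 0.334% and 0.347% of counts in control and 0.270% and 0.290% in SNP. Of the 11 tested 3 were higher and 5 lower (72.7% called, beside 26.2% of all genes). All 8 immune markers were too low to test and PTPRC, HLA-DRA, CD3E and TYROBP had 0 counts in every library. The fibroblast list made up between 0.0111% and 0.0125% of counts in all 4 libraries, and its members moved apart. Of 5 tested, 1 was higher and 2 were lower (60% called), with log2 fold changes from -1.67 to 0.68. The part of these markers in the proteasome values was not tested.

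Proteasome transcripts did not move as a block in SNP: the regulatory particle genes that passed the test were higher, with 1 exception, and the core genes that passed were all beta subunits and lower. Gene positions below are those of GENCODE 29 on GRCh38. Of the 49 genes 45 had enough counts to test, with between 13 and 2793 counts per library. By edgeR's quasi-likelihood test 15 of the 45 passed a Benjamini-Hochberg adjusted p of 0.05 over all genes, 7 higher and 8 lower. Over all 14759 genes tested, 26.2% passed, 13.6% higher and 12.6% lower. When libraries were scaled by the read totals implied by RPKM instead of TMM, the split was 8 higher and 4 lower among proteasome genes and 2085 higher and 1218 lower among all genes. DESeq2 called 5 of 44 higher and 4 lower, beside 9.97% and 8.96% of all genes it tested (18.9% in all). The median log2 fold change of the 45 genes was 0.014, beside -0.0042 for all genes tested. Both SNP libraries lay above both controls for 15 proteasome genes and below them for 14, beside 31.7% above and 32.3% below among all genes tested. Together the 49 genes took 0.254% and 0.263% of counts in control a and b and 0.284% and 0.266% in SNP a and b, so the proteasome share was higher in both SNP libraries by a margin smaller than the gap between them.

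**Figure D1:**
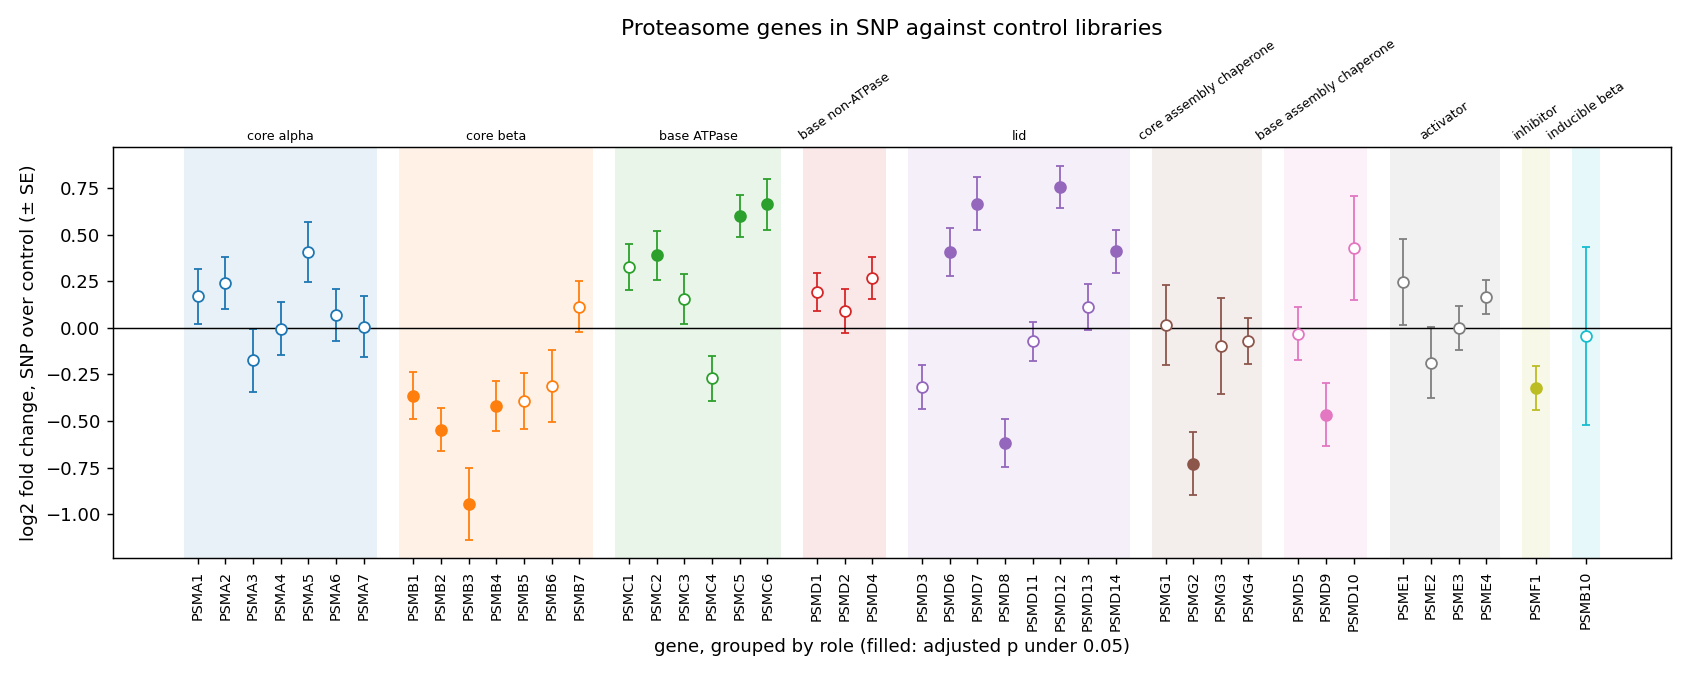
Log2 fold change of SNP over control (y axis, ± SE) for the tested genes without PSMC3IP, ordered by role along the x axis, with filled points past an adjusted p of 0.05. Filled points above 0 belong to base ATPase and lid genes, and 4 of the 8 filled points below 0 are core beta genes.

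Levels were compared between genes per exonic length, as TPM. For most genes that length was all annotated exons of the gene merged. In control the mean was highest for PSMB4 (168 TPM, SD 23.8, n = 2), followed by PSMD1 (144, SD 7.02) and PSME4 (142, SD 9.0), neighbours that did not differ beyond the spread between libraries. Among the tested genes PSMB10 was lowest (6.62 TPM, SD 2.23). Subunits of the same ring were not at equal TPM. The highest core alpha gene, PSMA7, was 4.55-fold and 5.07-fold above the lowest, PSMA5, in control a and b. The highest core beta gene, PSMB4, was 2.69-fold and 3.10-fold above PSMB6. In SNP the highest lid gene, PSMD12, was 6.10-fold and 5.47-fold above the lowest, PSMD6. These ratios carry the lengths used. In control a and b PSMA7 had 203 and 234 counts over 1750 bases, and PSMA5 had 146 and 151 over 5724. Which annotated transcripts were expressed was not tested, so unequal TPM need not be unequal transcript numbers. The TPM ratio of SNP to control ran 1.09-fold above the ratio of scaled CPM over 10583 genes. TPM was therefore used to compare genes within a library, and CPM and the fitted fold changes to compare the groups.

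**Figure D2:**
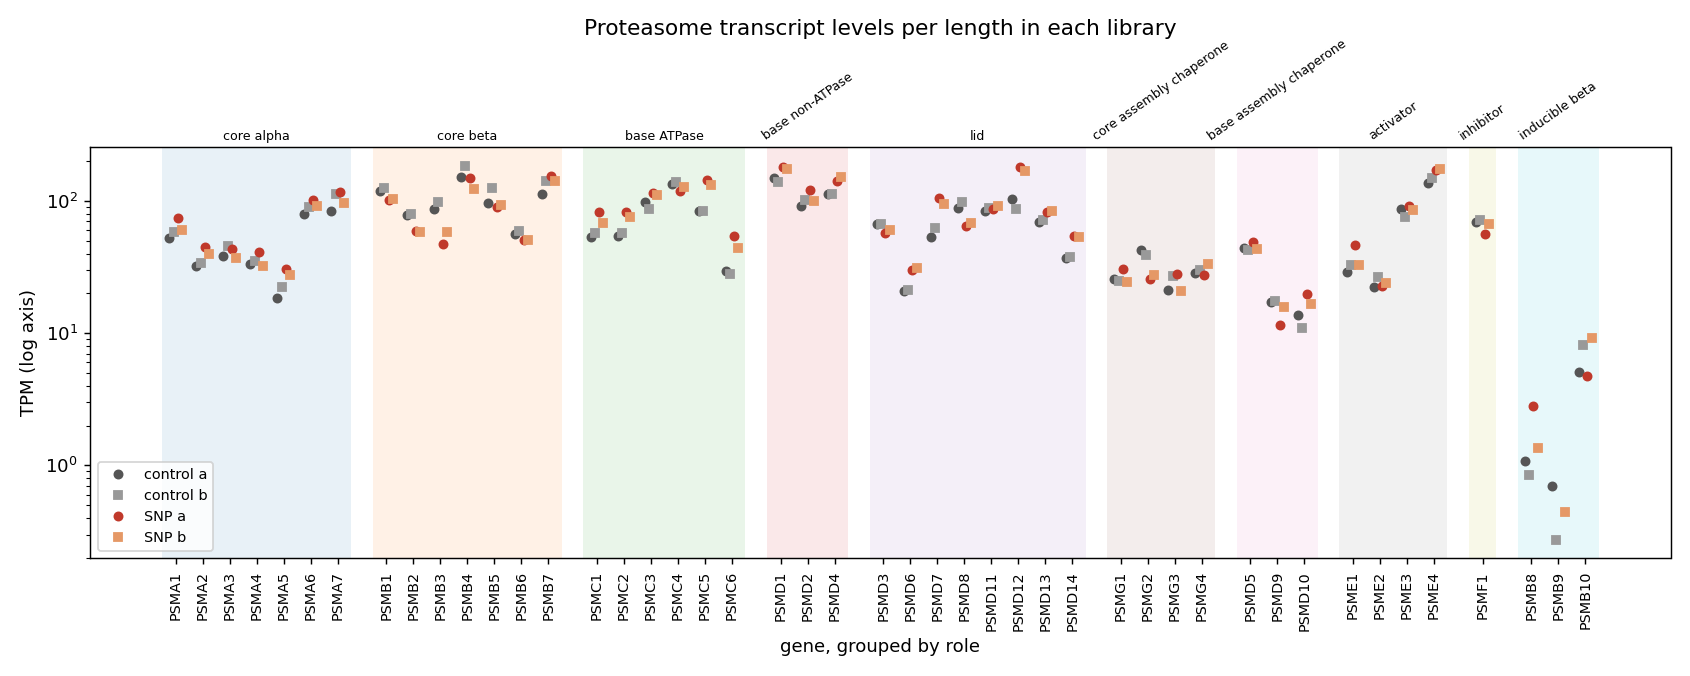
TPM on a log axis for each proteasome gene but PSMC3IP, PSMA8 and PSMB11, grouped by role, with 1 point per library (circles for a, squares for b, grey for control, red and orange for SNP). PSMB9 in SNP a is 0 and has no point. The grey points of PSMB2 and PSMB3 lie above the coloured ones, and those of PSMC5, PSMC6, PSMD7 and PSMD12 below them.

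The 7 alpha subunits of the core (PSMA1 to PSMA7), which form the outer rings and the gate, did not pass the test in either direction. None was called by edgeR's quasi-likelihood test, DESeq2 or limma-voom, and 1 of 7 had an unadjusted edgeR p under 0.05. That gene was PSMA5, with a log2 fold change of 0.41 (SE 0.16, adjusted p = 0.0707, edgeR), and the median of the 7 was 0.071. Scaled by the read totals implied by RPKM instead of TMM, PSMA5 was called higher (adjusted p = 0.0431, edgeR). Log2 fold changes of the others ran from -0.17 (SE 0.17) for PSMA3 to 0.24 (SE 0.14) for PSMA2. In 5 of the 7 the SNP and control libraries overlapped, whereas 64% of all genes tested had groups without overlap. Library a of the SNP group was above library b for all 7.

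The beta subunits of the core were lower in SNP: 4 of 7 fell (57.1%, beside 12.6% of all genes) and none rose. In 6 of 7 both SNP libraries lay below both controls (beside 32.3% of all genes). Their median log2 fold change was -0.39. The largest fall was in PSMB3 (ENSG00000277791, chr17:38752736-38764231), a structural subunit without a proteolytic site. PSMB3 was counted at 22.1 and 24.5 CPM in control a and b and at 11.1 and 13.1 CPM in SNP a and b. The SNP libraries were both well under the controls, a fold of 0.52 (log2 -0.94, SE 0.19, adjusted p = 0.00106, edgeR).

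PSMB2 (ENSG00000126067, chr1:35599544-35641844), another structural subunit, was at 81.1 and 81.3 CPM in the controls and 57.5 and 53.7 CPM in SNP. The 2 controls were nearly equal and both SNP libraries lay below them (log2 fold change -0.55, SE 0.12, adjusted p = 0.00161, edgeR). PSMB4 (ENSG00000159377, chr1:151399534-151401944), the beta subunit with the highest TPM in control, was at 69.9 and 83.8 CPM in control and 64.0 and 50.7 CPM in SNP. Control a stood close to SNP a here, without overlap (log2 fold change -0.42, SE 0.13, adjusted p = 0.0242, edgeR). PSMB1 fell by 0.36 on the log2 scale (SE 0.13, adjusted p = 0.0358, edgeR), from a mean of 58.3 CPM (SD 1.47, n = 2) to 45.2 (SD 0.50, n = 2). DESeq2 called only PSMB2 and PSMB3 of the 7. Without control b the adjusted p became 0.31 for PSMB4 and 0.229 for PSMB1 by edgeR. PSMB4 also lost its call without SNP b (0.155), and PSMB1 without control a (0.15), SNP a (0.0502) or SNP b (0.0586).

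The proteolytic subunits were not among the calls above. With the replicate letter as a block PSMB5 was called lower (adjusted p = 0.0423, edgeR). PSMB5, which holds the chymotrypsin-like site targeted by bortezomib, was at 36.7 and 46.7 CPM in control a and b and 31.7 and 31.6 CPM in SNP a and b. Both SNP libraries were below both controls, but the controls differed among themselves by more than control a did from SNP, and the adjusted p was 0.0602 (log2 fold change -0.39, SE 0.15, edgeR). PSMB6, the caspase-like subunit, was at 17.4 and 18.1 CPM in control and 14.6 and 14.0 CPM in SNP (log2 fold change -0.31, SE 0.19, adjusted p = 0.251, edgeR). PSMB7, the trypsin-like subunit, was the beta gene whose groups overlapped, with 43.0 and 53.4 CPM in control and 55.5 and 48.6 CPM in SNP (log2 fold change 0.11, SE 0.14).

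The inducible subunits PSMB8, PSMB9 and PSMB10 replace PSMB5, PSMB6 and PSMB7 in the immunoproteasome of immune cells and interferon-treated cells. They were near the detection limit in both groups. PSMB8 had 3, 2, 9 and 4 counts in control a, control b, SNP a and SNP b, and PSMB9 had 3, 1, 0 and 2, so neither was tested. PSMB10 had 13, 18, 14 and 25 counts in the same order, with overlapping groups (log2 fold change -0.04, SE 0.48, edgeR). Per length, PSMB5 was 90.2, 149, 31.8 and 69.3 times PSMB8 in the 4 libraries, and PSMB7 was between 15.6 and 32.7 times PSMB10. PSMB10 shares 34.8% of its exonic bases with AC040162.1 on the same strand, which had more counts than PSMB10 itself (312 against 70 over the 4 libraries), so its reads are uncertain. The summed share of the 8 immune markers was between 0.000174% and 0.000275% of counts, lowest in SNP a and highest in SNP b, and its part in these values was not tested. PSMB11, known from thymus epithelium, had 1 count in SNP a and 0 elsewhere, and PSMA8, known from testis, had 0 counts in all 4 libraries, which allows up to 0.535 CPM in the shallowest.

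The ATPases of the base, which unfold substrates and thread them into the core, were higher in SNP for 3 of 6 genes (50%, beside 13.6% of all genes), and none was lower. Their median log2 fold change was 0.36, with both SNP libraries above both controls in 4 of 6 (beside 31.7% of all genes). PSMC6 (ENSG00000100519, chr14:52707172-52728587) was at 47.0 and 44.2 CPM in control a and b and 80.9 and 63.5 CPM in SNP a and b. Both SNP libraries exceeded both controls, with SNP a the higher (1.58-fold, log2 0.66, SE 0.14, adjusted p = 0.00104, edgeR).

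PSMC5 (ENSG00000087191, chr17:63827152-63832026) was at 80.7 and 79.5 CPM in control and 129 and 114 CPM in SNP, a 1.51-fold difference (log2 0.60, SE 0.11, adjusted p = 4.8e-04, edgeR). The controls were nearly equal and the SNP libraries lay apart from them. PSMC5 shares 874 exonic bases (19.5%) with FTSJ3 on the opposite strand, which was itself higher in SNP (log2 0.72, adjusted p = 5.9e-05, edgeR), and as the strand setting of the counting is not given in the sources used here, reads from that stretch cannot be assigned. PSMC2 rose by 0.39 on the log2 scale (SE 0.13, adjusted p = 0.0337, edgeR), from 42.1 CPM (SD 0.69, n = 2) to 55.1 (SD 5.53, n = 2). Its call was lost without control a (adjusted p = 0.21), control b (0.15) or SNP a (0.17), and with DESeq2 (0.113).

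The other ATPases were PSMC1, PSMC3 and PSMC4. PSMC1 had a log2 fold change of 0.33 (SE 0.12, adjusted p = 0.0582, edgeR), and it shares 75.8% of its exonic bases with NRDE2 on the opposite strand, so its level is uncertain. PSMC3 had 0.16 (SE 0.13) with overlapping libraries. PSMC4 was the ATPase with both SNP libraries below both controls (69.3 CPM, SD 0.47, in control and 57.4, SD 1.20, in SNP), a log2 fold change of -0.27 (SE 0.12) that missed the threshold (adjusted p = 0.0963, edgeR).

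The 3 base subunits that are not ATPases are the scaffolds PSMD1 and PSMD2 and the ubiquitin receptor PSMD4. None passed by DESeq2, limma-voom or edgeR without the composition offsets given below. Of the 3, PSMD4 alone had an unadjusted edgeR p under 0.05 (log2 fold change 0.27, SE 0.11, adjusted p = 0.0835). PSMD4 went from a mean of 72.3 CPM (SD 1.10, n = 2) in control to 87.1 (SD 1.46, n = 2) in SNP, without overlap. PSMD1 had a log2 fold change of 0.19 (SE 0.10) and PSMD2 of 0.09 (SE 0.12).

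The lid, which binds and deubiquitinates substrates, had the largest rise of all proteasome genes and also a fall. Of its 8 genes 4 were higher (beside 13.6% of all genes) and 1 was lower (beside 12.6%). In none of the 8 did the groups overlap, which also held for 64% of all genes tested. The median log2 fold change of the lid genes was 0.26. PSMD12 (ENSG00000197170, chr17:67337916-67366627), a scaffold subunit, was at 119 and 98.5 CPM in control a and b and 195 and 173 CPM in SNP a and b. Control a was above control b, and both SNP libraries were well above the higher of them (1.69-fold, log2 0.76, SE 0.11, adjusted p = 5.4e-05, edgeR).

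PSMD7 and PSMD14 form the dimer that holds the deubiquitinase, with the active site in PSMD14. PSMD7 (ENSG00000103035, chr16:74296775-74306288) was at 31.6 and 35.9 CPM in control and 57.5 and 49.4 CPM in SNP (1.59-fold, log2 0.67, SE 0.14, adjusted p = 0.00142, edgeR). PSMD14 (ENSG00000115233, chr2:161308038-161411717) was at 60.8 and 60.5 CPM in control and 83.0 and 78.3 CPM in SNP (1.33-fold, log2 0.41, SE 0.12, adjusted p = 0.0121, edgeR). Both members of the dimer were higher in both SNP libraries. PSMD6 (ENSG00000163636, chr3:64010549-64024010), a lid scaffold, had the lowest TPM of the lid genes. It was at 40.9 and 40.8 CPM in control and 54.5 and 53.8 CPM in SNP (1.33-fold, log2 0.41, SE 0.13, adjusted p = 0.0237, edgeR). Libraries of a group agreed more closely for PSMD6 than for any other gene named in this paragraph. The calls of PSMD14 and PSMD6 were lost without control a (adjusted p = 0.112 and 0.163, edgeR) or control b (0.108 and 0.151), and PSMD6 was not called by DESeq2 (0.0862).

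PSMD8 (ENSG00000099341, chr19:38374536-38383824), the subunit that joins the lid last in assembly, went the other way. It was at 59.4 and 64.1 CPM in control and 39.9 and 40.5 CPM in SNP, a fold of 0.65 (log2 -0.62, SE 0.13, adjusted p = 0.00115, edgeR). The 2 SNP libraries were almost equal and clearly below the controls. PSMD3 had a log2 fold change of -0.32 (SE 0.12) and missed the threshold (adjusted p = 0.0515, edgeR), with both SNP libraries below both controls. PSMD11 had -0.07 (SE 0.10) and PSMD13 0.11 (SE 0.12). Counting all 14 PSMD genes together, base subunits and chaperones included, 4 were higher and 2 lower (42.9% called, beside 26.2% of all genes).

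Assembly chaperones guide the order in which subunits join. Among the 4 of the core, PSMG2 fell. PSMG2 (ENSG00000128789, chr18:12658043-12725740), which pairs with PSMG1 to place the alpha ring, was at 30.5 and 27.7 CPM in control a and b and 17.4 and 17.8 CPM in SNP a and b. The groups were far apart and the SNP libraries nearly equal (fold 0.60, log2 -0.73, SE 0.17, adjusted p = 0.00296, edgeR). Its partner PSMG1 was at 13.9, 13.1, 15.5 and 11.8 CPM in the 4 libraries in the same order, with SNP b below and SNP a above both controls (log2 fold change 0.01, SE 0.22). PSMG3 was at 8.95, 11.2, 11.0 and 7.78 CPM (log2 -0.10, SE 0.26) and PSMG4 at 63.9, 66.0, 57.3 and 66.5 CPM (log2 -0.07, SE 0.12), and both overlapped between groups.

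The chaperones of the base differed among themselves. PSMD9 (ENSG00000110801, chr12:121888731-121918297) was at 32.4 and 32.1 CPM in control and 20.1 and 26.6 CPM in SNP (fold 0.72, log2 -0.47, SE 0.17, adjusted p = 0.0449, edgeR). SNP a was the lower of the SNP libraries. Without it the log2 fold change was -0.28 (adjusted p = 0.274, edgeR), and the call was also lost without control a (0.156) or control b (0.141) and with DESeq2 (0.155). PSMD10, also known as the oncoprotein gankyrin, was at 7.25 and 5.68 CPM in control and 9.69 and 7.78 CPM in SNP (log2 0.43, SE 0.28, adjusted p = 0.274, edgeR). PSMD5 was at 41.8, 39.6, 43.1 and 36.6 CPM in control a, control b, SNP a and SNP b, with overlapping groups (log2 -0.03, SE 0.14).

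The activators cap the core in place of the regulatory particle. None of the 4 was called by edgeR, DESeq2 or limma-voom, and none had an unadjusted edgeR p under 0.05. PSME1 and PSME2, which form the interferon-induced activator ring, were at 11.1 and 12.3 and at 16.7 and 19.5 CPM in control a and b. In SNP a and b PSME1 was at 16.5 and 11.2 CPM and PSME2 at 15.7 and 16.0 CPM (log2 fold changes 0.25, SE 0.23, and -0.19, SE 0.19). The SNP libraries thus stood apart from each other for PSME1 and just below the controls for PSME2.

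PSME3, the nuclear activator, was at 95.8 and 82.2 CPM in control and 94.3 and 83.8 CPM in SNP, the same range in both groups (log2 -0.0011, SE 0.12). PSME4, a large single-chain activator of the nucleus, was the most counted proteasome gene, at 298 and 320 CPM in control and 352 and 342 CPM in SNP (log2 0.17, SE 0.09, adjusted p = 0.197, edgeR). Both SNP libraries were above both controls for PSME4.

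PSMF1 (ENSG00000125818, chr20:1113263-1189415), which inhibits the core and competes with the activators, was at 79.0 and 80.4 CPM in control and 59.8 and 67.4 CPM in SNP (fold 0.80, log2 -0.33, SE 0.12, adjusted p = 0.046, edgeR). Both SNP libraries were below both controls. The call was lost without control a (0.189), control b (0.239) or SNP a (0.183) and with DESeq2 (0.132). PSMC3IP, the gene outside the proteasome, had a mean of 18.0 CPM (SD 1.60, n = 2) in control and 20.7 (SD 2.64, n = 2) in SNP, with overlapping groups (log2 0.20, SE 0.19).

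The balance between the summed transcripts of parts of the complex differed between the groups. The sums carry no offsets for base composition. They include genes that share exonic bases with another gene, among them PSMC1 (75.8%), PSMC5 (19.5%) and PSMD7 (30.7%). Summed over the 17 base and lid genes and the 14 constitutive core genes, the TPM ratio of regulatory particle to core was 1.29 and 1.10 in control a and b and 1.54 and 1.61 in SNP a and b. Core beta over core alpha was 2.07 and 2.05 in control and 1.44 and 1.64 in SNP. Base ATPases over core beta rose from 0.650 and 0.554 to 0.915 and 0.886, and lid over core beta from 0.751 and 0.655 to 1.02 and 1.03, as values without a test. The groups did not overlap in any of these ratios, which share their denominators and were read from the same genes as the calls above. Of the 17 base and lid genes 7 were higher and 1 lower (median log2 fold change 0.27). Of the 14 core genes none was higher and 4 were lower (median -0.09, edgeR). Over all genes 13.6% were higher and 12.6% lower. Among the core genes 1 had an unadjusted p under 0.05 in the higher direction, and DESeq2 and limma-voom called none higher. With libraries scaled by the read totals implied by RPKM, PSMA5 was called higher (log2 0.48, adjusted p = 0.0431, edgeR).

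**Figure D3:**
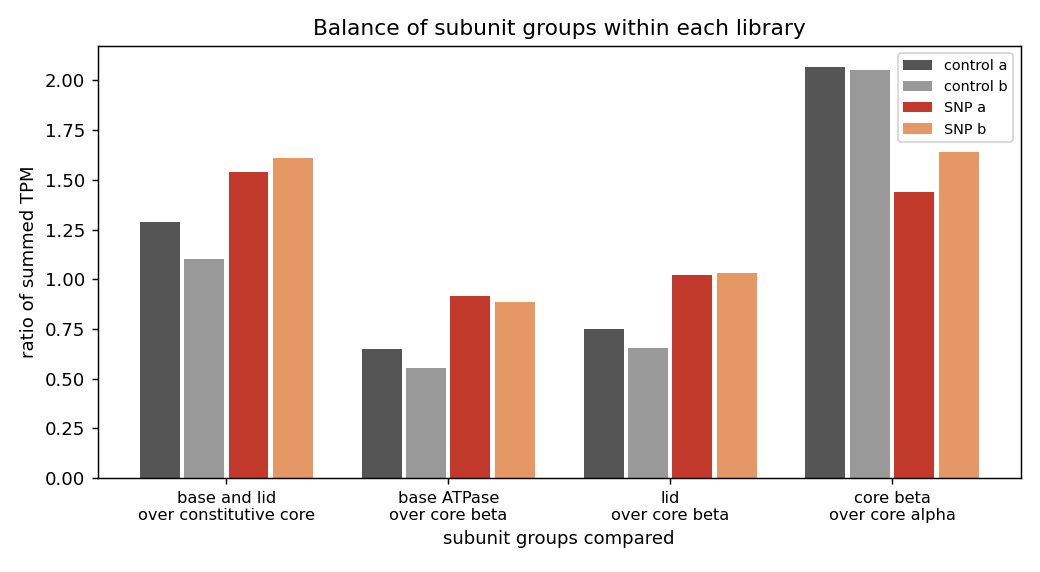
Ratio of summed TPM between groups of subunits (y axis) in each library, grouped along the x axis by the groups compared, with 1 bar per library. The SNP bars are above the control bars for the 3 ratios with a regulatory part over a core part and below them for core beta over core alpha, where control is at 2.07 and 2.05.

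The base composition of the transcripts moved with these differences. Guanine minus cytosine content was taken in percentage points of the bases summed over all annotated transcripts of a gene. It had a median of 4.26 over the 7 higher genes (2.25 to 6.79), of 0.266 over the 8 lower genes (-4.38 to 3.42) and of 3.06 over the 30 not called, beside 1.04 over all genes tested. Across the 45 genes Spearman's rho between this content and the log2 fold change was 0.594, and across all 14724 genes tested with a composition it was 0.480, as a description over genes that share the same 4 libraries. With GC content rho was -0.462 and with exonic length 0.283 over the 45 genes.

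**Figure D4:**
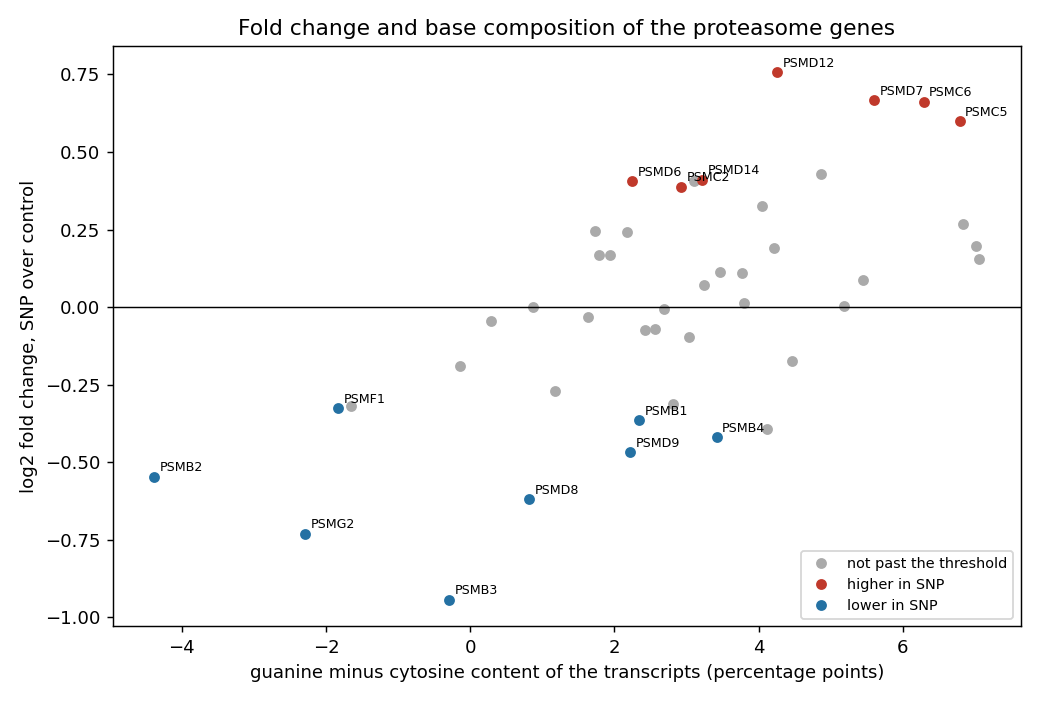
Log2 fold change (y axis) against guanine minus cytosine content of the annotated transcripts in percentage points (x axis) for the 45 tested genes, with 1 point per gene, red for higher, blue for lower and grey for genes that did not pass. All 7 red points lie at or above 2.25 percentage points, and blue points run from -4.38 to 3.42.

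When offsets for length, GC and guanine minus cytosine content were fitted per library, 9 of the 45 genes were called, 1 higher and 8 lower, beside 18.6% of all genes (9.7% higher and 8.88% lower). PSMD12 remained higher (log2 0.39, adjusted p = 0.00755, edgeR), and PSMB1, PSMB3, PSMB4, PSMD8 and PSMD9 remained lower. PSMA3, PSMB5 and PSMD2 were called lower in this fit (adjusted p = 0.0276, 0.0102 and 0.0318, edgeR) but not by the same test without offsets. PSMC5, PSMC6, PSMD7, PSMD6, PSMD14, PSMC2, PSMB2, PSMG2 and PSMF1 were called only without these offsets. PSMC5 went from 0.60 to 0.06 and PSMB2 from -0.55 to -0.13 on the log2 scale. The median of the core beta genes was -0.37 in this fit, close to its value without offsets, while that of the base ATPases went from 0.36 to 0.05 and that of the lid from 0.26 to 0.01. By role, 4 of 7 beta subunits were lower in this fit, and of the 17 base and lid genes 1 was higher and 2 were lower. With offsets for length and GC alone the medians were -0.33, 0.30 and 0.17 for core beta, base ATPase and lid genes. PSMC2 (adjusted p = 0.0617, edgeR), PSMD14 (0.106) and PSMB4 (0.0512) lost their calls with these 2 offsets. PSMD4 was then called higher (log2 0.35, adjusted p = 0.0116, edgeR), and it was at -0.22 with guanine minus cytosine content added.

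**Figure D5:**
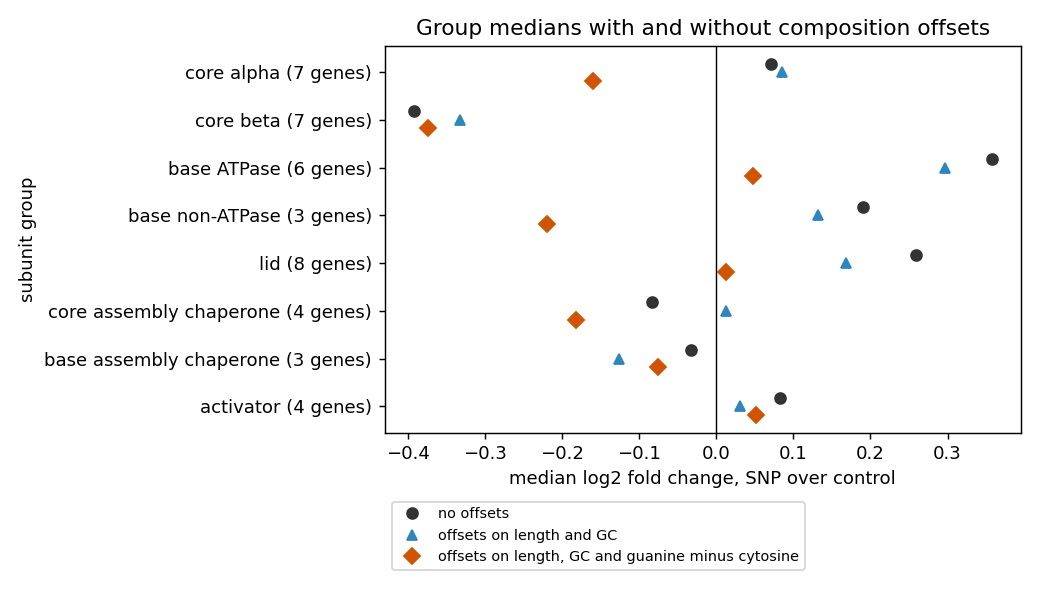
Median log2 fold change of SNP over control (x axis) for 8 groups of subunits (y axis, with the number of tested genes) without offsets (circles), with offsets on length and GC (triangles) and with offsets that add guanine minus cytosine content (diamonds). The 3 marks of core beta lie between -0.39 and -0.33, while the diamonds of base ATPase and lid lie at 0.05 and 0.01.

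Some tested genes share exonic bases with another gene. Over the 23 of 45 that share none, 8 were called, beside 26.2% of all genes. Of these, 3 were higher (PSMC2, PSMC6 and PSMD12) and 5 lower (PSMB1, PSMB2, PSMB3, PSMB4 and PSMD8). PSMD7 shares 30.7% of its exonic bases with AC009120.2 on the opposite strand, with 267 counts over the 4 libraries against 1245 for PSMD7. PSMG2 shares 13.9% with CEP76 on the opposite strand, with 653 counts against 629 for PSMG2 (CEP76 log2 0.06, adjusted p = 0.848, edgeR). PSMD9 shares 14.9% with AC069503.2 on the same strand, with 55 counts against 756 for PSMD9. AC069503.2 was higher in SNP (log2 2.16, adjusted p = 0.00834, edgeR), while PSMD9 was lower. Processed pseudogenes of the family held next to nothing: 2 of the 32 pseudogene rows had any count, 8 in total over the 4 libraries.

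Of 13 proteasome factors outside the PSM names, 2 were higher and 1 lower (23.1% called, beside 26.2% of all genes), with a median log2 fold change of 0.09. Counts given here and for the lists below are not scaled to depth, which was higher in both SNP libraries. The log2 fold changes are scaled, so they and not the counts compare the groups. Control libraries held 700 and 540 counts of UCHL5, a deubiquitinase of the base, against 1154 and 935 for SNP (log2 0.39, SE 0.12, adjusted p = 0.0168, edgeR), and 323 and 254 counts of SEM1, the smallest lid subunit, against 510 and 443 (log2 0.36, SE 0.13, adjusted p = 0.0445). POMP, the maturation factor of the beta ring, was counted 148 and 143 times in the controls and 142 and 128 times in the SNP libraries, a fall of the same sign as the beta subunits (log2 -0.48, SE 0.18, adjusted p = 0.0492, edgeR). POMP was past the threshold by a small margin and lost its call when any of the 4 libraries was left out (adjusted p from 0.0555 to 0.288). UCHL5 lost its call without control b (0.21) or SNP a (0.137) and turned to -0.17 on the log2 scale with the guanine minus cytosine offsets, and SEM1 without control a (0.122), control b (0.33) or SNP a (0.17). SEM1 was also not called by DESeq2 (0.133) or limma-voom (0.0522), and with those offsets its log2 fold change was 0.16 (adjusted p = 0.319, edgeR).

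Of 19 tested genes for the transcription and processing of NFE2L1, 8 rose and 4 fell (63.2% called, beside 26.2% of all genes). Their median log2 fold change was 0.25. NFE2L1 itself went from 1122 and 975 counts (control) to 2040 and 1900 (SNP) (log2 0.54, SE 0.10, adjusted p = 3.2e-04, edgeR). Its small MAF partner MAFG rose (log2 0.70, SE 0.11, adjusted p = 1.2e-04, edgeR), as did the ubiquitin ligase component FBXW7 (0.59) and the endoplasmic reticulum degradation factor SEL1L (0.49). NFE2L2, the related factor of the antioxidant response, fell by 0.46 on the log2 scale (SE 0.13, adjusted p = 0.0142, edgeR). The NFE2L2 call was lost without control b (0.138) or SNP b (0.0684) and with DESeq2 (0.0576). With the guanine minus cytosine offsets 3 genes of the list were higher and 2 lower, beside 9.7% and 8.88% of all genes. NFE2L1 was at 0.32 and MAFG at 0.57 on the log2 scale in that fit, still called, while FBXW7 (0.24, adjusted p = 0.059, edgeR) and SEL1L (0.24, 0.058) lost their calls. DDI2, the protease that activates NFE2L1, had a log2 fold change of 0.25 (SE 0.10, adjusted p = 0.072, edgeR).

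Genes that deliver substrates were lower where they passed, with 1 exception. Of 6 genes for ubiquitin and its activation 4 fell (66.7% called, beside 26.2% of all genes) and none rose (median log2 fold change -0.42). By DESeq2 and limma-voom none rose either, and 1 had an unadjusted edgeR p under 0.05 in the higher direction. The polyubiquitin gene UBB went from 892 and 914 counts (control) to 712 and 602 (SNP) (log2 -0.84, SE 0.12, adjusted p = 2.4e-05, edgeR), and the activating enzyme UBA1 from 1573 and 1356 to 1216 and 1416 (log2 -0.52, SE 0.10, adjusted p = 8.7e-04). UBA1 counts overlap, but its scaled CPM did not, with 243 and 241 in control and 153 and 184 in SNP. RPS27A, which encodes ubiquitin fused to a ribosomal protein, fell by 0.50 on the log2 scale. It lost its call without control b (adjusted p = 0.105, edgeR) or SNP b (0.119).

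Among 12 shuttle factors and p97 partners 1 rose and 4 fell (41.7% called, beside 26.2% of all genes, median -0.02). UBQLN2 fell by 0.77, UBQLN4 by 0.51 and FAF1 by 0.48 on the log2 scale, and UBXN1 rose by 0.54. UBXN1 lost its call without control a (adjusted p = 0.0874, edgeR). With the guanine minus cytosine offsets UBXN1 was at 0.11 (adjusted p = 0.547) and UBQLN4 at -0.19 (0.116) and both lost their calls, and UBQLN2, at -0.38, kept its call. Of 11 tested genes of class I antigen presentation, which uses peptides cut by the proteasome, 2 rose by edgeR (18.2% called, beside 26.2% of all genes). None of the 11 fell by edgeR, DESeq2 or limma-voom, with 1 gene at an unadjusted edgeR p under 0.05 in the lower direction. TAP2, a subunit of the peptide transporter, went from 23 and 32 counts (control) to 68 and 91 (SNP) (log2 1.15, SE 0.30, adjusted p = 0.00775, edgeR). TAP2 lost its call without control a (0.0931) or SNP b (0.0808).

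For scale, 2 complexes of other function were read in the same fit. The COP9 signalosome, whose subunits resemble the lid, had 1 of 10 genes higher (COPS2, log2 0.34, adjusted p = 0.0271, edgeR) and 1 lower (COPS6, log2 -0.62, adjusted p = 0.00149), with a median of -0.05. Of its genes 20% were called, beside 26.2% of all genes tested. COPS2 lost its call without control a (0.119), control b (0.197) or SNP a (0.192) and with DESeq2 (0.0608). With offsets on length and GC, without and with guanine minus cytosine content, its log2 fold change was 0.12 in both (adjusted p = 0.347 and 0.358, edgeR). The CCT chaperonin, a ring of ATPases that folds actin and tubulin, had 5 of 8 genes higher by edgeR and limma-voom and 3 by DESeq2. Of all genes 13.6% were higher by edgeR and 9.97% by DESeq2. None of the 8 CCT genes was lower by any of the 3 tools, with no unadjusted edgeR p under 0.05 in the lower direction. Their median was 0.31. CCT6A rose by 0.75 (SE 0.11, adjusted p = 4.2e-05, edgeR), CCT8 by 0.37, CCT7 by 0.34 and CCT2 by 0.32 on the log2 scale. With offsets that include guanine minus cytosine content the CCT median was 0.0009, 1 gene was higher and CCT8 turned to -0.03. CCT8 lost its call without control b (adjusted p = 0.222, edgeR) or SNP a (0.187), CCT7 without control a (0.527) or SNP a (0.154), and CCT2 without control a (0.167), control b (0.096) or SNP a (0.106).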

How the data were processed

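The 4 libraries (2 control, 2 SNP) each came with a table in which the authors deposited a whole-number count, an RPKM and a TPM per gene, per the file headers, with gene name and class. The submitters' processing notes name the GRCh38 build. The aligner, the counter and the strand setting are not given in the sources used here. Counts were tested with edgeR 4.0.16 (R 4.3.3): filterByExpr (minimum count 10, minimum total 15), TMM factors (0.989 to 1.01), glmQLFit and glmQLFTest, and Benjamini-Hochberg adjustment over all 14759 genes tested, called at 0.05. CPM was computed from the counts with the TMM factors, and TPM was used as deposited by the authors. Positions, exonic lengths and composition are from GENCODE 29, and exonic lengths matched those implied by the deposited counts and RPKM within 0.1% for 44 of 48 proteasome genes with a count (not PSMA6, PSMB8, PSMD13 or PSME2). Promoter windows are from RefSeq. PSMA7, PSMB1, PSMB6, PSMB7, PSMD4 and PSMG3 had no window.

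The members, the gene lists and the tests were chosen with earlier results of these data known. All members may be named. Values in every library are given for the 6 largest rises and falls past the threshold, the proteolytic and inducible subunits, activators, inhibitor and assembly factors, and up to 4 genes with the smallest adjusted p are named per list, with NFE2L1, NFE2L2, DDI2 and POMP. Some genes of the lists are counted but not reported here by name. ECPAS was found under its older symbol KIAA0368. Groups were compared over libraries, and lists were described by counts and medians without a set test. Alternatives were DESeq2 1.42.0 and limma-voom 3.58.1, other filters and scalings, a replicate block, per-library lowess offsets (span 0.5, 3 iterations), a threshold of 0.01 and leaving out each library. Counts of replicates differed by more than sampling noise (chi-square per degree of freedom 3.00 in control and 5.03 in SNP), so each library was counted as a sample. Tested on simulated counts for SNP against control (200 of 13790 genes changed by 1 on the log2 scale), the fit called 90.5% of changed genes, and 3.21% of its calls were on unchanged genes. The simulation gave every gene the same dispersion and had no trend with base composition. Each called proteasome gene changed by less than 1 on the log2 scale. These rates therefore do not give the power or error rate of the calls above.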

Additional observations from a re-analysis of the deposited data

How the results depend on the processing

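Of the 15 called proteasome genes, PSMD12, PSMB3 and PSMD8 kept their call and direction in 15 of 15 alternatives, and PSMC5, PSMC6, PSMD7, PSMB2 and PSMG2 in 14 of 15, each losing it with offsets that include guanine minus cytosine content. The 15 calls (7 higher and 8 lower) became 9 with DESeq2 (4 lower), 9 with the guanine minus cytosine offsets (1 higher), 8 at an adjusted p of 0.01 (4 higher and 4 lower) and 8 over genes without exonic overlap (3 higher and 5 lower). The lower calls became 5 without the filter and 4 with read totals implied by RPKM, and the cause of these changes was not tested, other than that a stricter threshold and fewer genes allow fewer calls. The calls over all genes went from 3861 to 2415 with DESeq2 and 2224 at 0.01. With each library left out in turn they ran from 2447 (without control b) to 4144, the proteasome calls from 8 (without control b) to 15, the higher calls from 4 (without control a or b) to 9 and the lower calls from 4 (without control b) to 6. A lone library was then assumed to vary like those of the other group. The median log2 fold change of 0.014 went to -0.13 with the guanine minus cytosine offsets and from -0.06 (without SNP a) to 0.18 (without SNP b) with a library left out.

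With the replicate letter as a block (replicate block) 18 proteasome genes were called, 8 higher and 10 lower, the median was 0.0096 and 4487 genes of all were called. The letters were not taken as pairs, since there are 2 pairs and the deviations of same-letter libraries correlated at 0.0442. Among the called proteasome genes no sign turned in the alternatives run, and among the called list genes described by name it turned for UCHL5 and CCT8. With guanine minus cytosine offsets the log2 fold changes turned for PSMA6 (-0.16), PSMA7 (-0.24), PSMB10 (0.13), PSMC3 (-0.32), PSMC3IP (-0.28), PSMD1 (-0.13), PSMD13 (-0.14), PSMD2 (-0.34), PSMD4 (-0.22), PSME3 (0.036), PSMG1 (-0.15), UCHL5 (-0.17) and CCT8 (-0.026). With length and GC offsets, without and with the replicate block, they turned for PSMA6 (-0.0275 and -0.0277), PSMB10 (0.17 and 0.15), PSME3 (0.0029 and 0.0062) and PSMG3 (0.11 and 0.095). With read totals implied by RPKM they turned for PSMA4 (0.067), PSMB10 (0.024), PSMD5 (0.037) and PSME3 (0.065). PSME3 was also at 0.0032 with DESeq2, 0.0027 with its size factors, 0.0021 with a mean of at least 50 counts and 0.0015 with the replicate block, and PSMG1 at -0.0005 with limma-voom. Leaving out a library turned the sign of 13 genes, given with their ranges: PSMA1 -0.022 to 0.34, PSMA4 -0.23 to 0.19, PSMA6 -0.049 to 0.18, PSMA7 -0.19 to 0.22, PSMB7 -0.042 to 0.28, PSMB10 -0.54 to 0.33, PSMD2 -0.10 to 0.26, PSMD5 -0.16 to 0.084, PSME1 -0.064 to 0.50, PSME3 -0.11 to 0.11, PSMG1 -0.20 to 0.20, PSMG3 -0.37 to 0.13 and PSMG4 -0.18 to 0.035. Depth limits PSMB8, PSMB9, PSMB11 and PSMA8, which were not tested, and PSMB10.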

Other observations

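Of the 37 rows that matched the name rule without being protein coding, 7 had any count. The 3 with more than a handful were noncoding RNAs and were chosen after their values were seen. PSMA3-AS1, an antisense RNA named for PSMA3, was at 122 and 111 CPM in control a and b and 138 and 133 CPM in SNP a and b, with both SNP libraries above both controls. PSMD6-AS2 was at 14.2, 11.2, 15.7 and 14.3 CPM in the same order, with SNP b just above control a and no overlap. PSMG3-AS1 was at 24.1 and 23.8 CPM in control and 12.2 and 17.4 CPM in SNP, with both SNP libraries below both controls, while PSMG3 overlapped between the groups.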
